A study of Mus musculus with 8 samples.

Results

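The integrated stress response and the unfolded protein response were followed in mouse full-grown oocytes through 38 genes of these pathways, taken by gene symbol from a table of 35976 genes. All 38 were in the table and 37 passed the filter on low counts. The exception was Herpud1, with 14 counts over all libraries. The 38 genes comprised 4 kinases of the translation factor eIF2alpha, 2 subunits of its phosphatase, 4 sensors or transcription factors of the endoplasmic reticulum (ER), 9 factors and targets of the ATF4 arm, 10 ER chaperones and folding enzymes, 7 genes of ER-associated degradation and 2 genes of the NRF2 arm.

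Both responses slow protein synthesis and raise the capacity to fold proteins when a cell is under strain. Kinases that sense misfolded ER proteins, lack of amino acids, lack of haem or double-stranded RNA phosphorylate eIF2alpha, which lowers general translation and favours translation of ATF4, a transcription factor for amino acid supply and, through CHOP, for cell death. In parallel, IRE1 and ATF6 at the ER membrane activate genes for chaperones and for the removal of misfolded proteins. Growing oocytes make large amounts of secreted zona pellucida proteins, and full-grown oocytes are largely silent in transcription, so that their RNA is mostly a store laid down during growth.

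Polyadenylated RNA was sequenced from pools of about 20 oocytes with the zona removed, and 200 pg of amplified cDNA went into each library. There were 4 groups of 2 libraries. In the H2A.Z line, libraries labelled as a double knockout (DKO) of H2A.Z.1 and H2A.Z.2, both forms of the histone variant H2A.Z, were compared with H2A.Z control libraries of wild-type genotype. In the Mll2 line, Mll2 knockout (KO) libraries, lacking a histone H3 lysine 4 methyltransferase also called KMT2B, were compared with Mll2 wild-type (WT) libraries. The deletion strategy, any Cre driver, the strain and the age of the animals were not given in the sources used here. Nor do the labels say whether the 2 libraries of a group came from separate animals, so the p-values cover the spread between libraries alone, which may be technical.

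Totals ran from 20309233 to 30087863 counts per library, and 21077 to 22212 genes had a count. Values are CPM, counts divided by the scaled library total, log2 differences come from edgeR's quasi-likelihood fit on 16847 genes, and a gene was called at a Benjamini-Hochberg adjusted p under 0.05 over all of them. The targeted gene of the Mll2 line fell as labelled: Kmt2b had 8.73 and 9.27 CPM in KO libraries, against 41.9 and 42.4 CPM in WT libraries. Those of the H2A.Z line went against their label. H2afz, which encodes H2A.Z.1, had 322 and 317 CPM in the libraries labelled DKO, against 23.9 and 29.9 CPM in H2A.Z controls. H2afv, which encodes H2A.Z.2, had 285 and 294 CPM in the libraries labelled DKO, against 108 and 107 CPM in H2A.Z controls. Which exons the alleles remove is not given in the sources used here, and these values count reads over the whole gene. Whether the labels of the 2 H2A.Z groups were exchanged was not tested, nor was any part of the alleles in these levels. Every direction below in the H2A.Z line is therefore one between libraries as labelled. All 14 oocyte markers were well above the filter in every library, and their summed level was 23282 to 34495 CPM. Markers of other cells were mixed. Of 14 granulosa and cumulus markers, 7 to 11 were below 1 CPM by group, among them Amh, Foxl2 and Ptx3, while Cyp19a1 (27.9 to 59.1 CPM), Nr5a2 (29.1 to 58.2 CPM) and Kitl (4.03 to 10.5 CPM) were present in every library. Pecam1 of vessels had 18.4 to 40.8 CPM, and Col3a1, Hbb-bs, Hba-a1 and Cdh5 of stroma, red blood cells and vessels were at 0 in all 8 libraries.

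The 38 genes spanned a wide range of levels. Per kilobase of the longest coding transcript in GENCODE M21, the highest mean level in Mll2 WT oocytes was that of Pdia6, a disulfide isomerase of the ER, at 141 CPM per kb. Calr (138), Ddit3 (117), Hsp90b1 (110), Manf (104) and Canx (102 CPM per kb) followed. The 2 Pdia6 libraries, at 124 and 158 CPM per kb, overlapped with the 2 Calr libraries, at 144 and 132 CPM per kb, so the order of these neighbours was within their spread. At the low end, Xbp1, whose spliced mRNA encodes the transcription factor of the IRE1 arm, had 0.202 CPM per kb, and Herpud1, a target of the response that serves ER-associated degradation, had 0.0253 CPM per kb. In Mll2 WT oocytes 7 of the 38 genes were below 1 CPM and 11 were at or above 100 CPM. A pool averages over its oocytes, so that fewer cells holding a transcript and less of it per cell cannot be told apart.

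**Figure D1:**
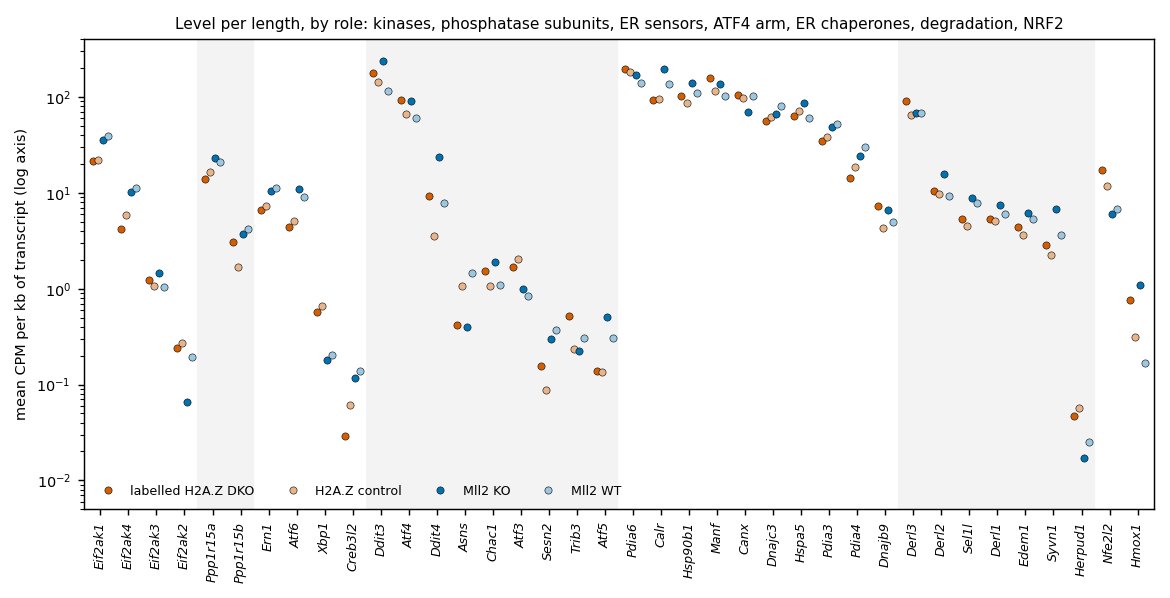
Mean level of each of the 38 genes per kilobase of its longest coding transcript (CPM per kb, log axis), arranged by role and coloured by group, with the libraries labelled H2A.Z DKO left of H2A.Z control and Mll2 KO left of Mll2 WT. Chaperones and Ddit3 lie near the top, at 102 to 141 CPM per kb for the highest 6 in Mll2 WT, and Herpud1 lies lowest in Mll2 WT, at 0.0253 CPM per kb.

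Of the 37 tested genes, 8 rose and 2 fell in the libraries labelled DKO. Over all tested genes, 19.4% were called higher and 11.5% lower in that comparison. In Mll2 KO oocytes 10 of the 37 rose and 5 fell, where 14.4% of all tested genes were called higher and 16.2% lower. The median log2 difference of the 37 was 0.09 under the DKO label and 0.20 in Mll2 KO, beside 0.12 and 0.02 over all tested genes. Scaling moved that background, and the median of the 37 moved with it. With library size alone the median of all genes was 0.002 in the DKO comparison and 0.139 in the KO comparison. That of the 37 was then -0.029 and 0.32. The share of all calls that were higher was then 45.5% in place of 62.9% for DKO and 62.9% in place of 47.1% for KO. Leaving out 1 library, which leaves 1 library in a group, also changed the number of rises and falls among the 37. The number over all tested genes changed with it. Without Mll2 KO library 1 or 2 the median of the 37 under the DKO label was -0.029 and -0.028, beside 0.004 and 0.003 over all genes. In Mll2 KO the median of the 37 ran from 0.147 without KO library 2 to 0.256 without WT library 1. Those of all genes were then -0.04 and 0.023. No gene of the 37 that was called changed its direction under any scaling tried.

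Called in both comparisons were 5 of the 37, which is 50% of those called under the DKO label and 33.3% of those called in Mll2 KO. Among all tested genes, 5198 were called under the DKO label and 5158 in Mll2 KO, with 988 higher in both and 740 lower in both. Atf4, Ddit3, Ddit4 and Manf were higher in both, as were 5.86% of all tested genes. Pdia4 was lower in both, as were 4.39% of all tested genes. This shared direction holds only for the H2A.Z libraries as labelled: with those 2 groups exchanged, 0 of the 5 would have the same direction in both lines. In neither were 17 of the 37 called. The share of all tested genes called in neither was not counted, so whether 17 is few or many cannot be said.

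**Figure D2:**
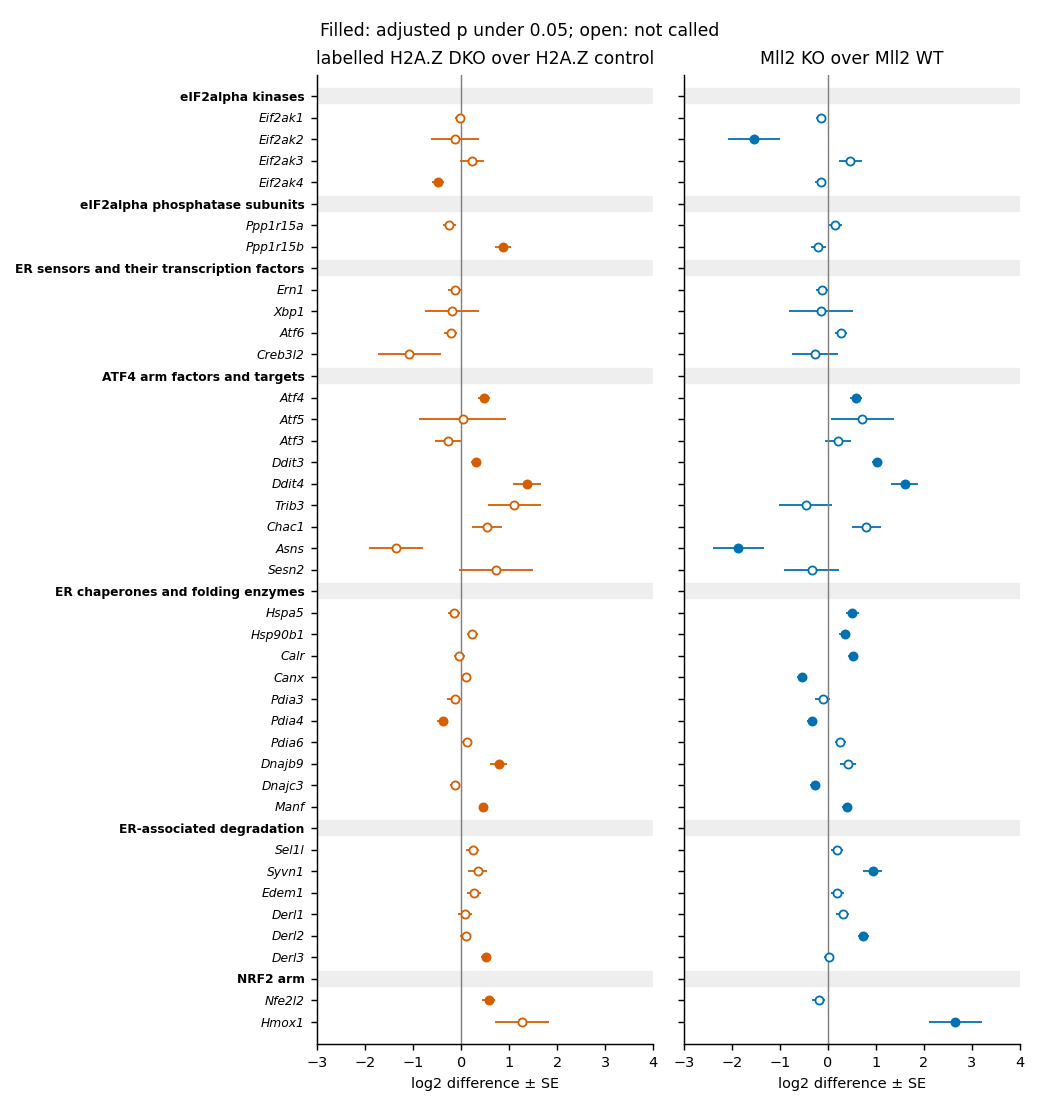
Log2 difference with its SE for each tested gene, by role, for the libraries labelled H2A.Z DKO over H2A.Z control and for Mll2 KO over Mll2 WT, with genes called at an adjusted p under 0.05 filled. The largest called rise is that of Hmox1 in Mll2 KO (2.66), and Ddit4 stands right of 0 in both panels (1.37 and 1.60).

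Of the 6 genes that phosphorylate eIF2alpha or reverse that mark, 1 was called higher and 1 lower under the DKO label and 1 lower in Mll2 KO, beside the 19.4% and 11.5% of all tested genes called higher and lower for DKO and the 14.4% and 16.2% for KO. Eif2ak4 encodes GCN2, the kinase that senses uncharged tRNA. It had 22.7 and 21.7 CPM in the libraries labelled DKO, against 30.8 and 31.2 CPM in H2A.Z controls. The groups did not overlap, and the difference was -0.48 ± 0.12 on the log2 scale (SE, edgeR adjusted p = 0.00877). Without any one of the 4 libraries of the line the call was lost, with the adjusted p between 0.0529 (without DKO library 1) and 0.0756 (without DKO library 2), and at 0.0562 and 0.0676 without control library 1 and control library 2. Eif2ak2 encodes PKR, which senses double-stranded RNA. It was scarce, with 10 and 7 counts in Mll2 KO libraries, against 18 and 33 counts in WT libraries, and its log2 difference was -1.54 ± 0.55 (adjusted p = 0.0422). That call was lost under 9 of 14 alternatives. The adjusted p was 0.306 without WT library 2 and 0.137 without KO library 2, 0.0518, 0.0552 and 0.0532 without H2A.Z control library 1, DKO library 1 and DKO library 2, and 0.0825 by DESeq2. Eif2ak1, which encodes the haem-regulated kinase HRI, was the kinase with the highest level per kilobase in all 4 groups, for example 35.3 CPM per kb in Mll2 KO and 39.2 CPM per kb in Mll2 WT. Its log2 difference was -0.03 under the DKO label and -0.15 in Mll2 KO, neither called. Yet its mutant libraries lay below their controls without overlap in both lines, so with 2 libraries a group non-overlap alone says little. Part of its exons overlaps Aimp2 on the opposite strand, and the kits do not record strand, so reads of the pair there cannot be told apart. Eif2ak3, encoding the ER kinase PERK, differed by 0.23 under the DKO label and 0.47 in Mll2 KO, and was called in neither.

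Ppp1r15b encodes the constitutive subunit (CReP) that brings protein phosphatase 1 to eIF2alpha. It had 18.3 and 16.4 CPM in the libraries labelled DKO, against 9.35 and 9.64 CPM in H2A.Z controls. In the Mll2 line it had 18.4 and 22.8 CPM in KO libraries, against 24.4 and 22.9 CPM in WT libraries. The H2A.Z controls were thus the low group, and the other 3 groups lay between 16.4 and 24.4 CPM. The rise under the DKO label was 1.83-fold (log2 0.87 ± 0.17, adjusted p = 0.00117), the Mll2 difference of -0.20 was not called, and the 2 effects differed by 1.06 ± 0.23 (interaction contrast, adjusted p = 0.00424). The H2A.Z controls were lower than the Mll2 WT libraries by 1.32 on the log2 scale (adjusted p = 1.16e-05), so the libraries labelled DKO were nearer to the Mll2 WT level than their own controls were. Its exons share 11.4% of their bases with Gm26616 on the opposite strand. Ppp1r15a, encoding the stress-induced subunit GADD34, differed by -0.25 under the DKO label and 0.15 in Mll2 KO and was called in neither, though the DKO difference passed (adjusted p = 0.00373) when the H2A.Z line was fitted alone.

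None of the 4 ER sensors and their transcription factors was called in either comparison by edgeR or by DESeq2, and 0 had an unadjusted p under 0.05. The shares of all tested genes called by edgeR were 19.4% higher and 11.5% lower for DKO, and 14.4% higher and 16.2% lower for KO. Ern1, which encodes IRE1alpha, differed by -0.14 under the DKO label and -0.12 in Mll2 KO. Atf6 differed by -0.22 under the DKO label and by 0.27 in Mll2 KO, where its 2 KO libraries had 69.7 and 88.4 CPM and the WT libraries 66.0 and 65.4 CPM. Without KO library 1 the Atf6 difference in Mll2 KO was called (0.44, adjusted p = 0.00326). Fitted alone, the H2A.Z line gave calls for Atf6 (-0.34, adjusted p = 0.0108) and Ern1 (-0.26, adjusted p = 0.0434). Xbp1 had 1.197 and 1.23 CPM in the libraries labelled DKO, against 1.34 and 1.43 CPM in H2A.Z controls, and gene counts cannot tell its spliced from its unspliced form. Creb3l2, a membrane-bound factor of the same family as ATF6, reached at most 1.16 CPM in any library.

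Of 9 factors and targets of the ATF4 arm, Atf4, Ddit3 and Ddit4 were higher in both comparisons, and Asns was lower in Mll2 KO. Of all tested genes, 19.4% were called higher and 11.5% lower for DKO, and 14.4% higher and 16.2% lower for KO. Atf4 itself had 175 and 149 CPM in the libraries labelled DKO, against 108 and 124 CPM in H2A.Z controls. In the Mll2 line it had 149 and 163 CPM in KO libraries, against 116 and 92.7 CPM in WT libraries. Each library labelled DKO was above both H2A.Z controls, and each Mll2 KO library above both WT libraries. The log2 difference was 0.48 ± 0.13 under the DKO label (adjusted p = 0.00949) and 0.59 ± 0.13 in Mll2 KO (adjusted p = 0.00259). The first was lost without H2A.Z control library 1 (adjusted p = 0.123), without DKO library 1 (0.136) and with library size alone (0.0667), and the second without WT library 2 (0.0756). The effects of the 2 lines differed by -0.11, which was not called.

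Ddit3 encodes CHOP, the factor downstream of ATF4 best known for promoting cell death under lasting ER stress. It had 220.2 and 204 CPM in Mll2 KO libraries, against 105 and 104 CPM in WT libraries. Libraries labelled DKO had 151 and 165 CPM, against 124 and 133 CPM in H2A.Z controls. The KO libraries thus stood at about the 2.03-fold level of their controls (log2 1.02 ± 0.10, adjusted p = 2.32e-06), which held under every alternative tried. The rise of 0.30 ± 0.10 under the DKO label (adjusted p = 0.0339) was lost under 12 of 14 alternatives, DESeq2 (adjusted p = 0.0727) and each omission of 1 library included, with the adjusted p up to 0.265 without Mll2 WT library 2. The effect was larger in Mll2 KO, by 0.72 ± 0.14 on the log2 scale (interaction contrast, adjusted p = 0.00231). Mars, on the opposite strand, shares part of the 4.73% of Ddit3 exon bases that lie in other genes.

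Ddit4 encodes REDD1, an inhibitor of mTORC1 that is induced by ATF4 and by other stresses. Its level was 15.03 and 17.5 CPM in the libraries labelled DKO, against 4.96 and 7.45 CPM in H2A.Z controls. In Mll2 KO libraries it was 27.9 and 55.6 CPM, against 13.4 and 14.2 CPM in WT libraries. The 2 KO libraries were far apart from each other, yet both lay above both WT libraries. It rose 2.59-fold under the DKO label (log2 1.37 ± 0.30, adjusted p = 0.00489) and 3.02-fold in Mll2 KO (log2 1.60 ± 0.28, adjusted p = 0.0012), and both calls held under every alternative. The size in Mll2 KO rested on KO library 2, without which the log2 difference was 0.97.

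Asns encodes asparagine synthetase, a textbook target of ATF4, and it went the other way. It had 33 and 15 counts in Mll2 KO libraries, against 91 and 89 counts in WT libraries, and 5 and 31 counts in the libraries labelled DKO, against 35 and 62 counts in H2A.Z controls. Libraries labelled DKO lay below the H2A.Z controls, and Mll2 KO libraries below WT. The fall was 1.87 ± 0.53 on the log2 scale in Mll2 KO (adjusted p = 0.0151), and it was lost without WT library 1 (adjusted p = 0.0605), WT library 2 (0.061) or KO library 2 (0.1). Without KO library 1 the log2 difference was -2.54. Under the DKO label the difference of -1.36 was not called (adjusted p = 0.0816), but it was without DKO library 2 (log2 -3.25, adjusted p = 0.00522). Chac1, which degrades glutathione, differed by 0.80 in Mll2 KO (adjusted p = 0.0521) and by 0.54 under the DKO label. Trib3, a pseudokinase that dampens ATF4 and CHOP, differed by 1.11 under the DKO label and -0.46 in Mll2 KO at 0.303 to 1.11 CPM over the 8 libraries, and was called in neither. The factors Atf3 and Atf5 and the leucine sensor Sesn2 were not called in either comparison.

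The promoters were searched for the C/EBP-ATF response element through which ATF4 acts, spelled TGATGNAA on either strand, in RefSeq windows (GRCm38.p6) of 250 bases before to 50 bases after each start. Windows were found for 33 of the 38 genes, and 5 of the 33 (15.2%) held a match, as did 4.51% of 27025 genes. The matched sites of the ATF4 arm genes are shown, with 10 bases on each side and the match in capitals, because they set the gene that fell beside those that were not called:
Asns, chr6:7693215-7693242, minus strand: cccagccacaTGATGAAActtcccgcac
Atf3, chr1:191183426-191183453, minus strand: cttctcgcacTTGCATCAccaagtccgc
Chac1, chr2:119351039-119351066, plus strand: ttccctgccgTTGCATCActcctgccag
Trib3, chr2:152344029-152344056, minus strand: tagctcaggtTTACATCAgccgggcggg
The fifth match was in Herpud1. Of the 4 tested genes with a match, Asns in Mll2 KO was the only one called in either comparison. Beside this stand 14.4% of all tested genes called higher and 16.2% lower for KO, and 19.4% and 11.5% for DKO. The windows of Ddit3, Ddit4 and Atf4 held no such letters. Sites outside these windows were not searched, so these genes may hold the element elsewhere.

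**Figure D3:**
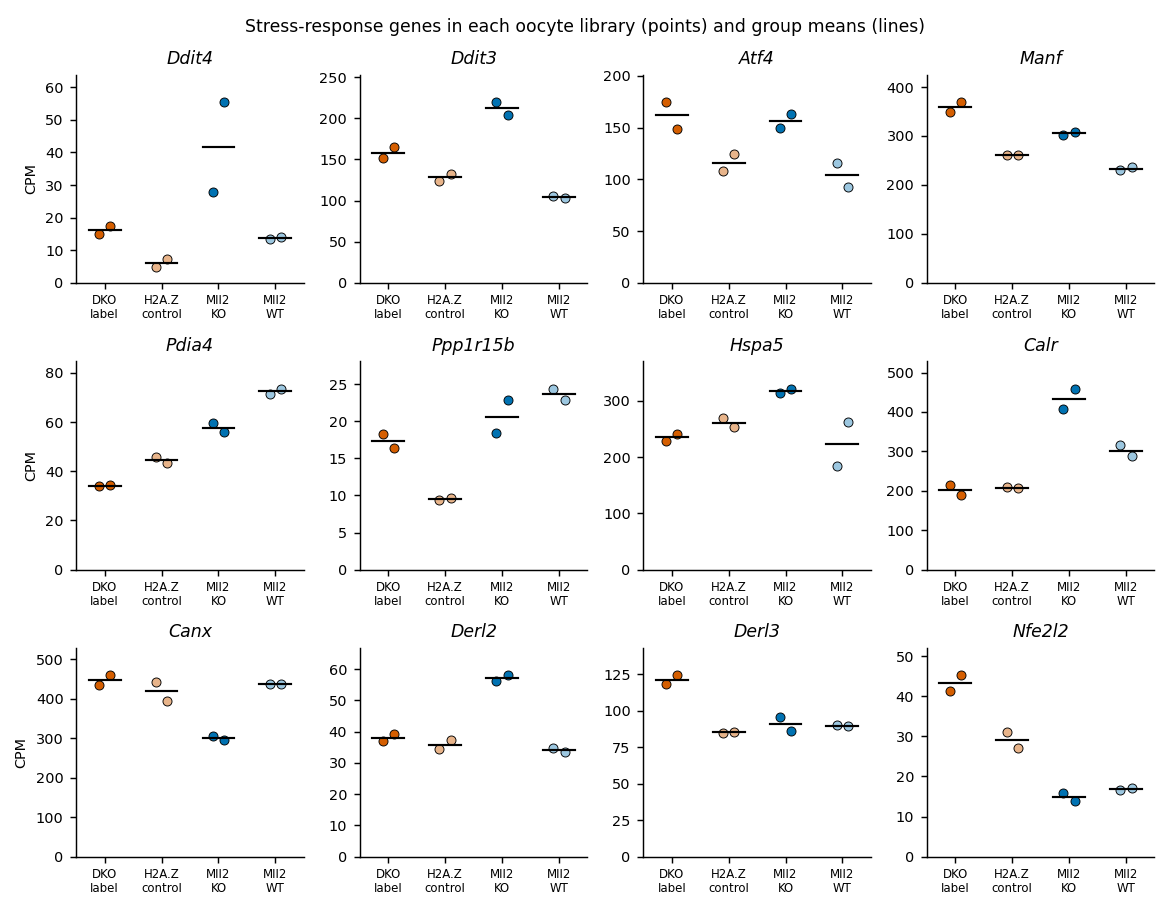
CPM of each library for genes the results turn on, with the libraries labelled H2A.Z DKO left of H2A.Z control and Mll2 KO left of Mll2 WT. Atf4 and Ddit4 lie higher in the libraries labelled DKO than in H2A.Z controls and higher in Mll2 KO than in Mll2 WT, Ppp1r15b is low in the H2A.Z controls (9.35 and 9.64 CPM), and Canx is low in Mll2 KO (304 and 295 CPM).

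Among the ER chaperones and folding enzymes, 7 of 10 were called in Mll2 KO, 4 of them higher and 3 lower, where 14.4% of all tested genes were called higher and 16.2% lower. Calls under the DKO label numbered 3 of 10, 2 higher and 1 lower, beside 19.4% and 11.5% of all tested genes. Hspa5 encodes BiP, the main ER chaperone and the brake on the ER sensors. It had 314 and 322 CPM in Mll2 KO libraries, against 185 and 263 CPM in WT libraries, and in the libraries labelled DKO it had 229 and 242 CPM, against 269 and 254 CPM in H2A.Z controls. The KO libraries lay above both WT libraries, which were far apart. Its log2 rise of 0.51 ± 0.13 in Mll2 KO (adjusted p = 0.00861) was lost without WT library 1 (0.27, adjusted p = 0.176), KO library 1 (adjusted p = 0.0637) or KO library 2 (0.131), and with the line fitted alone (0.0534). Under the DKO label the difference was -0.15 and not called.

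Calr and Canx encode calreticulin and calnexin, paired lectin chaperones that hold newly made glycoproteins, soluble and membrane-bound. They moved in opposite directions in Mll2 KO. Calr had 407 and 459 CPM in KO libraries, against 315 and 288 CPM in WT libraries. Canx had 304 and 295 CPM in KO libraries, against 436 and 438 CPM in WT libraries. For neither did the KO and WT libraries overlap. Calr rose by 0.52 ± 0.11 (adjusted p = 0.00175) and Canx fell by 0.55 ± 0.10 (adjusted p = 0.000815), and both calls held under every alternative. Per kilobase, Calr was at 198 CPM and Canx at 69.9 CPM in Mll2 KO, against 138 CPM and 102 CPM in Mll2 WT. In the libraries labelled DKO Calr had 216 and 189 CPM, against 209 and 207 CPM in H2A.Z controls, and Canx had 434 and 459 CPM, against 443 and 394 CPM. Neither was called there, and the interaction contrast was called for both, at -0.56 ± 0.15 for Calr (adjusted p = 0.0156) and 0.64 ± 0.14 for Canx (adjusted p = 0.00522). The interaction was lost for Calr without H2A.Z control library 1 (adjusted p = 0.0659), control library 2 (0.0709) or DKO library 2 (0.114), and for Canx without control library 2 (0.0533).

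Manf encodes a secreted ER stress factor with protective effects on neurons. Libraries labelled DKO had 349 and 370.0 CPM, against 261 and 261 CPM in H2A.Z controls. Mll2 KO libraries had 303 and 309 CPM, against 230.0 and 237 CPM in WT libraries. Replicates were close and groups well apart, and the log2 rise was 0.46 ± 0.09 under the DKO label (adjusted p = 0.00192) and 0.39 ± 0.09 in Mll2 KO (adjusted p = 0.00578). The second was lost without WT library 1 (adjusted p = 0.0677). Of its exon bases, 9.25% lie in other genes on either strand. Dnajb9 encodes ERdj4, a co-chaperone of BiP. It had 17.0 and 19.3 CPM in the libraries labelled DKO, against 11.5 and 9.56 CPM in H2A.Z controls, a rise of 0.78 ± 0.17 (adjusted p = 0.00295) that was lost without control library 2 (0.65, adjusted p = 0.064). In Mll2 KO it differed by 0.42 (adjusted p = 0.0705), with 16.5 CPM in both KO libraries, against 11.5 and 13.2 CPM in WT libraries. Processed pseudogenes match part of the transcripts of Dnajb9 (93.3% identity over 697 bases), Calr (92.5% over 495 bases) and Derl1 (95.4% over 652 bases), so their counts carry that uncertainty, and the pseudogene of Dnajb9, Gm6568, had 9 counts over all libraries.

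Pdia4, a disulfide isomerase, fell in both lines. It had 33.9 and 34.3 CPM in the libraries labelled DKO, against 45.7 and 43.5 CPM in H2A.Z controls, and 59.7 and 55.9 CPM in Mll2 KO libraries, against 71.5 and 73.7 CPM in WT libraries. Groups did not overlap in either line, but the calls were weak. The log2 difference of -0.39 under the DKO label (adjusted p = 0.0183) was lost without any one library of its line (adjusted p = 0.135 and 0.0749 without control library 1 and control library 2, and 0.118 and 0.0901 without DKO library 1 and DKO library 2). The difference of -0.33 in Mll2 KO (adjusted p = 0.0351) was lost under 9 of 14 alternatives, with the adjusted p up to 0.169. Hsp90b1, which encodes GRP94, rose by 0.35 in Mll2 KO (adjusted p = 0.0268), lost under 6 of 14 alternatives, among them without KO library 2 (0.17, adjusted p = 0.19). Dnajc3, encoding the PERK inhibitor p58IPK, fell by 0.27 in Mll2 KO (adjusted p = 0.0418), lost under 10 of 14, with the adjusted p up to 0.219 with library size alone. Pdia3 and Pdia6 were not called in either comparison, and their 2 Mll2 WT libraries were far apart, at 118 and 171 CPM for Pdia3 and 271 and 343 CPM for Pdia6.

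ATF6, with NF-Y, acts on the ER stress response element, CCAAT and CCACG separated by 9 bases. The full match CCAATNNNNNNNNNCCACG on either strand was found in the windows of 8 of 33 genes (24.2%), against 37 of 27025 genes (0.137%). The element was first described in promoters of this gene family, so that excess is background and not a result of these oocytes. The sites are shown with 10 bases on each side and the match in capitals, because genes holding the same element went in both directions in Mll2 KO. Those of genes that rose:
Hspa5, chr2:34772015-34772053, plus strand: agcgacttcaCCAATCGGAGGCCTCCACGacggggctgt
Calr, chr8:84847065-84847103, minus strand: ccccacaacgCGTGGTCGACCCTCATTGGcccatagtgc
Hsp90b1, chr10:86705628-86705666, minus strand: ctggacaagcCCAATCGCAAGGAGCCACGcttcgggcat
Hsp90b1, chr10:86705523-86705561, minus strand: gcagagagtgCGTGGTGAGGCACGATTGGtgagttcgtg
Syvn1, chr19:6046522-6046560, plus strand: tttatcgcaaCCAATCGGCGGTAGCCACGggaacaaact
Those of genes that fell:
Canx, chr11:50325790-50325828, minus strand: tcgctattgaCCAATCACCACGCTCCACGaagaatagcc
Dnajc3, chr14:118937817-118937855, plus strand: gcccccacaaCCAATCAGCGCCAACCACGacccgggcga
Those of genes not called in Mll2 KO:
Pdia6, chr12:17266481-17266519, plus strand: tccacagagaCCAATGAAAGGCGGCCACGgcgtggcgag
Derl3, chr10:75893232-75893270, plus strand: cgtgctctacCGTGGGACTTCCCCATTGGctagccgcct
In Mll2 KO 4 of the 8 rose and 2 fell, and the calls of Dnajc3, Hsp90b1 and Hspa5 were lost under 10, 6 and 4 of 14 alternatives. Of 24 tested genes with a window but no such element, 4 rose and 3 fell there. All tested genes gave 14.4% higher and 16.2% lower. Under the DKO label 1 of the 8 was called, Derl3, which rose. Without the element 5 of 24 rose and 2 fell, where 19.4% of all tested genes were higher and 11.5% lower.

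The whole windows of Hspa5 and Canx are printed, with the same element in capitals, since they are a pair of chaperones whose levels parted in Mll2 KO and for which the effects of the 2 lines differed in opposite directions:
Hspa5, chr2:34771840-34772139, plus strand: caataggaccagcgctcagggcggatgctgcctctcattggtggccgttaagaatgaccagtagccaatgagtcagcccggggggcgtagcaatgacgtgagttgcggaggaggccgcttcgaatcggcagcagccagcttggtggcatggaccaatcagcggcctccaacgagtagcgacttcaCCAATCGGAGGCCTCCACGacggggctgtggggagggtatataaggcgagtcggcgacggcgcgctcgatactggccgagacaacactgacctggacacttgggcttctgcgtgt
Canx, chr11:50325624-50325923, minus strand: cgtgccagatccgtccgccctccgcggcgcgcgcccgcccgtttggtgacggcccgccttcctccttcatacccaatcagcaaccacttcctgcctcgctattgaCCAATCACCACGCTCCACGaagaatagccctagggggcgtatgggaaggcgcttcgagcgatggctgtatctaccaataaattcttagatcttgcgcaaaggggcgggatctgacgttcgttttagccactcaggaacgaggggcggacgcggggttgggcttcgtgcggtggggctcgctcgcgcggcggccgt
Both are rich in CpG, with an observed over expected ratio of 0.90 for Hspa5 and 1.18 for Canx. Over 36 windows of the genes studied the median ratio was 0.78 and 86.1% exceeded 0.6, and over 15880 windows of tested genes the median was 0.67 and 56.4% exceeded 0.6. The unfolded protein response element TGACGTGG was in none of the 33 genes' windows and in 0.714% of all genes, and the antioxidant response element TGACNNNGC was in 24.2% of the 33 and 14% of all. No matched site shared bases with a site of another motif.

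Of the 6 tested genes of ER-associated degradation, 2 rose in Mll2 KO and 1 rose under the DKO label. Beside these stand 14.4% of all tested genes called higher and 16.2% lower for KO, and 19.4% and 11.5% for DKO. By edgeR and by DESeq2 0 of the 6 fell in either comparison, and 0 were lower at an unadjusted p under 0.05. Syvn1 encodes HRD1, the ubiquitin ligase of the pathway. It had 19.5 and 27.9 CPM in Mll2 KO libraries, against 12.2 and 12.7 CPM in WT libraries, and in the libraries labelled DKO it had 9.44 and 10.3 CPM, against 8.42 and 7.25 CPM in H2A.Z controls. It rose 1.90-fold in Mll2 KO (log2 0.93 ± 0.19, adjusted p = 0.00153), a call that held under every alternative. The difference of 0.34 under the DKO label was not called.

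The derlins form part of the channel through which misfolded proteins leave the ER, and 2 of them were called, each in 1 line. Derl2 had 56.3 and 58.0 CPM in Mll2 KO libraries, against 34.7 and 33.5 CPM in WT libraries. In the libraries labelled DKO it had 37.0 and 39.2 CPM, against 34.4 and 37.2 CPM in H2A.Z controls. Only the Mll2 KO group stood apart, by 1.68-fold (log2 0.74 ± 0.12, adjusted p = 0.000253). Derl3 had 118 and 124 CPM in the libraries labelled DKO, against 85.0 and 85.3 CPM in H2A.Z controls. Its Mll2 KO libraries had 95.4 and 85.7 CPM, against 89.99 and 89.2 CPM in WT libraries. Here the libraries labelled DKO stood apart, by 1.42-fold (log2 0.51 ± 0.10, adjusted p = 0.00175). Both of these calls held under every alternative. The difference between lines was itself called for both, at -0.66 ± 0.17 for Derl2 (adjusted p = 0.0129) and 0.49 ± 0.15 for Derl3 (adjusted p = 0.0262). That of Derl2 was lost without H2A.Z control library 2 (adjusted p = 0.0876) or DKO library 1 (0.0758), and that of Derl3 under 7 of 13 alternatives, with the adjusted p up to 0.259 with library size alone. Derl1 differed by 0.31 in Mll2 KO and 0.08 under the DKO label, neither called. Sel1l, the partner of HRD1, and Edem1, a lectin that selects proteins for removal, were not called in either comparison.

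Nfe2l2 encodes NRF2, the factor of the antioxidant response that PERK can activate. It had 41.4 and 45.3 CPM in the libraries labelled DKO, against 31.1 and 27.2 CPM in H2A.Z controls. In the Mll2 line it had 15.8 and 13.8 CPM in KO libraries, against 16.7 and 17.0 CPM in WT libraries. The rise under the DKO label was 0.57 ± 0.14 (adjusted p = 0.00635), lost without H2A.Z control library 2 (adjusted p = 0.101) or DKO library 2 (0.0717). The Mll2 difference of -0.19 was not called, and the effects differed by 0.76 ± 0.20 (adjusted p = 0.0151), lost without control library 2 (0.0994), DKO library 2 (0.0775) or WT library 2 (0.112) and with library size alone (0.0913). Hmox1 encodes haem oxygenase 1, a target of NRF2. It had 48 and 53 counts in Mll2 KO libraries, against 14 and 2 counts in WT libraries, and 25 and 27 counts in the libraries labelled DKO, against 9 and 13 counts in H2A.Z controls. Mll2 KO libraries were above WT and libraries labelled DKO above H2A.Z controls. The fitted rise was 6.34-fold in Mll2 KO (log2 2.66 ± 0.56, adjusted p = 0.00229). The call held under every alternative, but its size rested on the WT libraries, at 4.58 without WT library 1 and 1.85 without WT library 2 on the log2 scale. Under the DKO label the difference of 1.27 was not called (adjusted p = 0.101).

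Over the 37 tested genes the difference between the 2 effects was called higher for 4 (Ppp1r15b, Canx, Derl3 and Nfe2l2) and lower for 4 (Ddit3, Hspa5, Calr and Derl2), where 12.9% of all tested genes were called higher and 6.68% lower. The number of these calls changed with the library left out, among the 37 and over all tested genes. The Hspa5 difference between lines (-0.66 ± 0.19, adjusted p = 0.0204) was lost without any one library other than WT library 2. It ran from -1.04 to -0.42 over the alternatives. The share of these calls that were higher over all genes was 65.8%, and 37% with library size alone. The median of the 37 was -0.11 and that of all genes 0.12. The controls of the 2 lines differed as well. Of the 37, 5 were higher and 15 lower in H2A.Z controls than in Mll2 WT libraries, where 19% of all tested genes were called higher and 25.3% lower, and the median was -0.35, against 0.02 over all genes. Without H2A.Z control library 1 or 2 the median of the 37 was -0.378 and -0.294, beside 0 and -0.015 over all genes. Fewer were then called higher, of the 37 and of all tested genes. Lower in H2A.Z controls were Eif2ak1 by 0.84, Eif2ak4 by 0.95, Ppp1r15b by 1.32 and Ddit4 by 1.14 on the log2 scale, and higher were Atf3 by 1.26, Xbp1 by 1.69 and Nfe2l2 by 0.79. Strain, batch and handling cannot be told apart from line in this design.

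**Figure D4:**
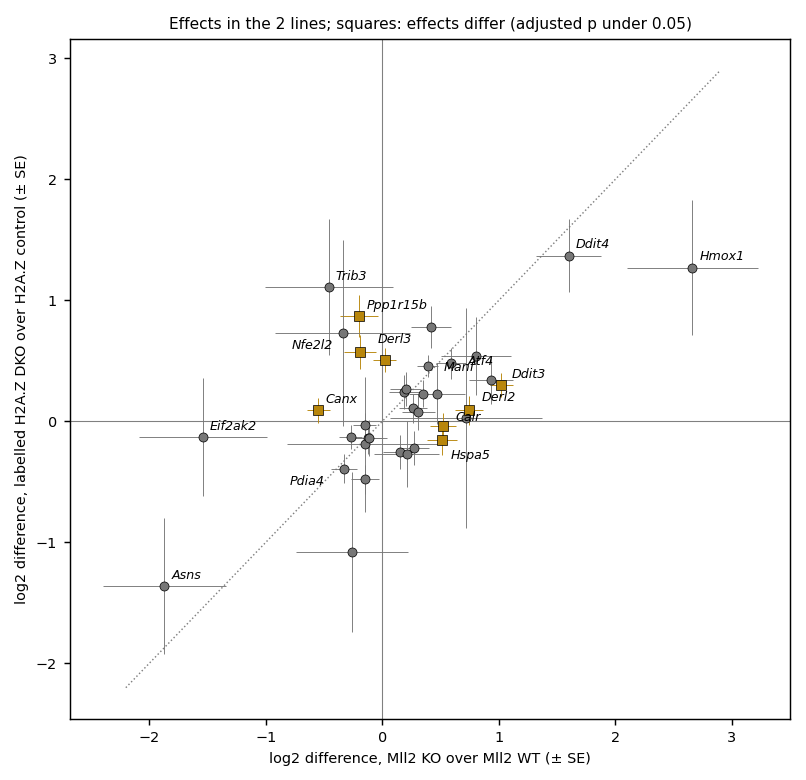
Log2 difference of each tested gene in Mll2 KO over Mll2 WT (x axis) and in the libraries labelled H2A.Z DKO over H2A.Z control (y axis), with SEs, the dotted line marking equal effects, and squares the 8 genes whose effects differed at an adjusted p under 0.05. Ppp1r15b, Nfe2l2, Derl3 and Canx lie above the line and Ddit3, Derl2, Calr and Hspa5 below it.

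Some markers of other ovarian cells differed in both lines, as did some oocyte markers. The summed level of 14 granulosa and cumulus markers was 126 and 127 CPM in the libraries labelled DKO, against 94.3 and 96.9 CPM in H2A.Z controls, with 3 of 9 tested markers higher and 1 lower. That of 10 theca and stroma markers was 27.0 and 23.8 CPM, against 14.3 and 16.0 CPM, with 1 of 4 tested markers higher. Most of it was Cyp11a1, at 20.6 and 19.4 CPM in the libraries labelled DKO, against 9.04 and 12.2 CPM in H2A.Z controls. The summed level of 10 blood, immune and endothelial markers was 32.8 and 29.5 CPM, against 22.8 and 24.4 CPM, with 1 of 4 tested markers higher. Most of it was Pecam1, at 29.3 and 27.4 CPM in the libraries labelled DKO, against 18.4 and 20.1 CPM in H2A.Z controls. In Mll2 KO the 3 sums were 103 and 102, 9.20 and 9.67, and 37.0 and 45.0 CPM, against 92.1 and 94.3, 8.92 and 10.2, and 37.7 and 36.2 CPM in WT. There 3 of 9 tested granulosa markers were higher and 2 lower, and 1 of 4 in each of the other lists was higher and 1 lower. Of the 14 oocyte markers, 3 were called higher and 0 lower under the DKO label, and 0 higher and 3 lower in Mll2 KO. The shares of all tested genes, higher and lower, were 19.4% and 11.5% for DKO and 14.4% and 16.2% for KO. Fshr had 18.7 and 18.9 CPM in the libraries labelled DKO, against 1.29 and 0.597 CPM in H2A.Z controls, and 7.24 and 7.69 CPM in Mll2 KO libraries, against 0.991 and 0.593 CPM in WT libraries. In Mll2 KO, Nr5a2 had 58.2 and 56.5 CPM, against 34.5 and 33.8 CPM in WT, and Cyp19a1 had 27.9 and 30.0 CPM, against 47.8 and 51.2 CPM in WT. The part of other cells in the results was not tested.

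Other genes of the same pathways, in 8 lists, gave 148 tested genes outside the 38. Under the DKO label 27 of them rose and 23 fell, and in Mll2 KO 23 rose and 20 fell. These shares lie near those of all tested genes, 19.4% higher and 11.5% lower for DKO and 14.4% higher and 16.2% lower for KO. Of 21 further targets of ATF4 and CHOP, 7 rose in Mll2 KO (Cth, Cebpb, Ero1l, Stc2, Slc7a5, Cebpg and Aldh1l2). By edgeR and DESeq2 0 fell there, and 1 was lower at an unadjusted p under 0.05. Cth, which makes cysteine, had 92.7 and 94.7 CPM in KO libraries, against 31.7 and 29.9 CPM in WT libraries (log2 1.60, adjusted p = 0.000424), a call lost without KO library 1 or KO library 2 (adjusted p up to 0.0939). Cebpb, a transcription factor, rose by 0.83, and Ero1l, the oxidase that recharges disulfide isomerases, by 1.61, both under every alternative. Under the DKO label 3 of the 21 rose and 2 fell. Vldlr, a lipoprotein receptor, rose by 2.12 and Aldh18a1, of proline synthesis, fell by 1.35, and Cth differed by -0.18, not called.

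Aminoacyl-tRNA synthetases charge tRNAs and are raised by ATF4 in other cells. Of 11 tested, 4 fell under the DKO label and 0 rose by edgeR or DESeq2, with 2 higher at an unadjusted p under 0.05. In that comparison 11.5% of all tested genes were called lower and 19.4% higher. Lars had 7.67 and 7.59 CPM in the libraries labelled DKO, against 26.1 and 21.03 CPM in H2A.Z controls (log2 -1.63 ± 0.17, adjusted p = 5.43e-06). Wars fell by 0.95, Aars by 0.82 and Iars by 0.54, and all 4 calls held under every alternative. In Mll2 KO 1 of the 11 rose (Nars) and 2 fell (Iars and Tars), beside 14.4% and 16.2% of all tested genes. Lars differed by -0.07 there, not called. The difference between lines was called for Lars (-1.56, adjusted p = 0.000213) and Wars (-1.03, adjusted p = 0.000579).

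Among 22 genes of ER translocation and glycosylation, 1 rose and 5 fell in Mll2 KO, and 6 rose and 4 fell under the DKO label. For this and the lists below, the shares of all tested genes were 14.4% higher and 16.2% lower for KO. Those for DKO were 19.4% higher and 11.5% lower. Ssr4, the delta subunit of the translocon-associated complex, had 4.18 and 2.96 CPM in Mll2 KO libraries, against 40.2 and 37.4 CPM in WT libraries. All 4 libraries of the H2A.Z line lay between 39.0 and 40.5 CPM. The fall was 3.44 ± 0.17 on the log2 scale (adjusted p = 1.19e-09), held under every alternative, and was the lowest log2 difference in Mll2 KO among these 148 genes. Further ER chaperones gave 3 rises among 17 in Mll2 KO (P4hb, Prkcsh and Sdf2l1), with 0 falls by edgeR or DESeq2 and 2 lower at an unadjusted p under 0.05, and 2 rises and 2 falls under the DKO label. Further degradation genes gave 5 rises and 3 falls among 25 in Mll2 KO, and 5 rises and 4 falls under the DKO label, where Rnf5, a ubiquitin ligase of the ER membrane, fell by 1.28. Genes of NRF2 regulation gave 4 rises and 5 falls among 27 in Mll2 KO, and 7 rises and 6 falls under the DKO label. Pgd, of the pentose phosphate pathway, rose by 1.40 in Mll2 KO and by 1.00 under the DKO label, the second lost without H2A.Z control library 2 or DKO library 1 (adjusted p up to 0.114).

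Further sensors and regulators gave 2 rises and 3 falls among 12 in Mll2 KO, and 2 rises and 1 fall under the DKO label. The shares of all tested genes were again 14.4% higher and 16.2% lower for KO, and 19.4% higher and 11.5% lower for DKO. Map3k5, the kinase ASK1 that relays IRE1 signals to cell death pathways, fell in both. It had 49.9 and 46.6 CPM in Mll2 KO libraries, against 71.2 and 74.2 CPM in WT libraries, and in the libraries labelled DKO it had 48.5 and 53.1 CPM, against 69.4 and 78.7 CPM in H2A.Z controls. The log2 falls were 0.59 in Mll2 KO, held under every alternative, and 0.55 under the DKO label, lost without H2A.Z control library 2 or DKO library 1 (adjusted p up to 0.0565). Mbtps1, the protease that releases ATF6 from the membrane, rose by 0.85 under the DKO label. Among 13 genes of eIF2, eIF2B and GCN2 cofactors, 2 fell in Mll2 KO, of which Oma1, a mitochondrial protease upstream of HRI, fell by 0.53 under every alternative. There 0 rose by edgeR or DESeq2, or at an unadjusted p under 0.05. Under the DKO label 2 rose (Eif2s2 and Eif2b5) and 0 fell by either tool, with 1 lower at an unadjusted p under 0.05, and the call of Eif2b5 was lost under all 14 alternatives.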

How the data were processed

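The values used are whole-number counts per gene deposited by the authors, without normalisation. RSEM 1.3.1, Trim Galore 0.6.4 and STAR 2.7.3 are named, with the build mm10, per the submitters' processing notes. The annotation and any rounding were not given in the sources used here. Libraries were made with SMART-Seq v4 and Nextera XT, per the labels' protocols. Groups were those of the labels and no library was left out. In R 4.3.3, edgeR 4.0.16 fitted 4 group means to all 8 libraries (filterByExpr, TMM, robust quasi-likelihood, 4 residual degrees of freedom, common dispersion 0.0152). P-values were Benjamini-Hochberg adjusted over 16847 genes. SEs came from the F statistic, and CPM divide by the total times the TMM factor. Counts were also simulated with 1 dispersion for all genes, few genes changed and genes of low mean count left out. Of the genes changed by log2 1, 64.6% of 99 were recovered in the DKO comparison and 82.0% of 100 in the KO comparison. The changed genes were drawn separately for each comparison, so these shares do not compare the power of the 2 real comparisons. Genes of the pathway lists are named from the calls with the smallest p, up to 3 per list and comparison, or as members of a count. The members, lists and motifs were chosen with earlier results of these data known. Positions and lengths are those of GENCODE M21, promoters of RefSeq GRCm38.p6, and near-identical copies were searched with BLAST 2.17.0. Alternatives were other scalings, no filter, 2 groups alone, DESeq2 1.42.0, a replicate block and each library left out.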

Additional observations from a re-analysis of the deposited data

Results flagged for a closer look

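For 8 of the 37 tested genes the effect under the DKO label and the effect in Mll2 KO differed by the interaction contrast of edgeR, which tests that difference itself. The DKO effect minus the KO effect, on the log2 scale, was 1.06 for Ppp1r15b (adjusted p = 0.00424), 0.76 for Nfe2l2 (0.0151), 0.64 for Canx (0.00522) and 0.49 for Derl3 (0.0262). It was -0.72 for Ddit3 (0.00231), -0.66 for Hspa5 (0.0204), -0.66 for Derl2 (0.0129) and -0.56 for Calr (0.0156). Those of Ddit3 and Ppp1r15b held under all 13 alternatives. The other 6 were lost without H2A.Z control library 2, with adjusted p of 0.0994 for Nfe2l2, 0.0533 for Canx, 0.102 for Derl3, 0.0617 for Hspa5, 0.0876 for Derl2 and 0.0709 for Calr. H2afz and H2afv went against the DKO label, so the first term of each difference is one between libraries as labelled.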

How the results depend on the processing

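Of the called genes, Ddit4, Derl3, Manf and Ppp1r15b under the DKO label, and Calr, Canx, Ddit3, Ddit4, Derl2, Hmox1 and Syvn1 in Mll2 KO, kept direction and call under all 14 alternatives, and no called member changed sign under any. With the 2 groups of a comparison fitted alone, 8 members in place of 2 were lower under the DKO label and 2 in place of 5 were lower in Mll2 KO. With library size alone, 2 were lower in Mll2 KO, and the interaction was higher for 2 and lower for 8 in place of 4 each. Leaving out 1 library at a time gave 5 to 7 higher and 0 to 6 lower under the DKO label, 7 to 14 higher and 1 to 5 lower in Mll2 KO, 1 to 4 higher and 1 to 8 lower for the interaction, and 2 to 5 higher and 11 to 15 lower between the controls. The cause of these shifts was not tested. The labels do not say whether equal replicate numbers mark paired libraries. The correlation of replicate differences was 0.0395 in the H2A.Z line and -0.0221 in the Mll2 line, over 16847 genes. Noise at low counts can lower it, so it cannot show that pairing was absent. With a replicate block 8 were higher and 3 lower under the DKO label, beside 18.5% and 11.1% of all tested genes. In Mll2 KO 10 were higher and 2 in place of 5 lower, with 4968 in place of 5158 genes called. The interaction was higher for 4 and lower for 4. With 2 libraries a group, part of the simulated differences of log2 1 were missed, and low counts (Herpud1, Xbp1, Creb3l2, Atf5) limit what can be seen. Of the members not called, 7 of 27 under the DKO label and 7 of 22 in Mll2 KO were called under some alternative.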
